A study of Ovis aries with 9 samples.

Results

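The ErbB receptors and their ligands, together with enzymes of prostaglandin synthesis, form a route by which glia can signal to neurons of the hypothalamus. The 10 genes described here were chosen by name from this route. They are the ErbB receptors EGFR, ERBB2, ERBB3 and ERBB4, the ligands TGFA, NRG1, NRG2 and NRG3, the chaperone and prostaglandin E synthase gene PTGES3, and the prostaglandin D2 synthase gene PTGDS. All 10 were found, with 40 RefSeq transcripts, among the 21284 genes whose transcripts could be summed. The RNA came from the hypothalamus of 9 Dolang ewes, with 3 ewes before puberty (120 days of age), 3 at the first signs of puberty (130 days) and 3 after puberty (150 days). The stages were told by behavior and by the state of the vulva, and no treatment or genetic change was involved. Each ewe gave 1 library of poly(A) RNA, and libraries are named here by stage and replicate number.

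The ErbB receptors are tyrosine kinases that act in pairs. EGFR binds TGFA and related peptides, ERBB3 and ERBB4 bind neuregulins, and ERBB2 has no known ligand and serves as the preferred partner of the others. In the hypothalamus of rodents and primates, TGFA and neuregulins act on ErbB receptors of astrocytes and tanycytes, which then release prostaglandin E2, and this prostaglandin stimulates the neurons that secrete gonadotropin-releasing hormone (GnRH). Outside that setting, ERBB3 is known as a receptor of the oligodendrocyte lineage, and PTGDS is made in the brain by oligodendrocytes, leptomeninges and choroid plexus.

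The question addressed was how strongly each gene was expressed, through which transcripts, and whether its level differed between stages. Levels are given as summed FPKM, a read measure corrected for the length of the transcript and the size of the library, added over the RefSeq mRNAs of a gene. FPKM is scaled by length, so genes can be set side by side. The table gives no read counts, so the number of reads behind each value is unknown, and no counting interval is given.

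Puberty 2 stood apart from the other 8 libraries. Its FPKM values summed to 599726, against 359588 to 398109 in the others, and 15577 genes lay above 0 there against 17180 to 17763. Of the 40 transcripts of the 10 genes, 27 were listed at 0 in Puberty 2 and 9 to 15 in each other library. Puberty 2 gave the lowest level of 7 of the 10 genes. Stage patterns are therefore given with and without it.

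The tissue label was checked against marker genes. GNRH1, which encodes the GnRH precursor, was listed at 0 in all 9 libraries, and AGRP, a peptide of feeding neurons in the arcuate nucleus, was at most 0.169. NKX2-1 and SIM1, transcription factors of the hypothalamus, were at most 0.262 and 0.111. Of the 14 hypothalamic genes listed, 7 had a mean of at least 0.5 over the libraries other than Puberty 2. Over all 9 libraries SST was at 4.27 to 107, TRH at 0.824 to 36.8 and POMC, which the pituitary also makes, at 2.09 to 22.4. AVP was at 0.551 to 10.4, OXT at 0.319 to 4.81 and KISS1 at most 0.360. The highest AVP value was that of Puberty 2, and without this library its stage means were 1.68, 0.773 and 1.75. The sum of 6 pituitary markers ranged from 0.125 to 203, most of it PRL in the highest library (199.5 in Postpuberty 1). The marker sum of 5 choroid plexus genes ranged from 9.71 in Prepuberty 2 to 7652 in Puberty 3, and that of 10 neuronal genes from 357 in Puberty 2 to 1858 in Postpuberty 3. In such bulk tissue, fewer cells of a type and less RNA per cell cannot be told apart.

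The levels of the 10 genes spanned a wide range. Without Puberty 2, the mean over 8 libraries was 882 for PTGDS, 61.0 for PTGES3 and 32.9 for ERBB3. The other 7 genes were low, with means of 4.35 for ERBB2, 3.46 for NRG1, 3.36 for ERBB4, 1.99 for TGFA, 1.92 for NRG3, 1.92 for EGFR and 0.404 for NRG2. The order was the same with all 9 libraries. Between neighbors in this order, the ranges over 8 libraries were apart only for PTGES3 above ERBB3, ERBB3 above ERBB2, and EGFR above NRG2. PTGDS exceeded PTGES3 in 7 of 8 libraries and ERBB4 exceeded TGFA in 8 of 8. ERBB2 exceeded NRG1 in 3 of 8, NRG1 exceeded ERBB4 in 6 of 8, TGFA exceeded NRG3 in 5 of 8 and NRG3 exceeded EGFR in 5 of 8, so these neighbors do not differ beyond their spread.

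**Figure D1:**
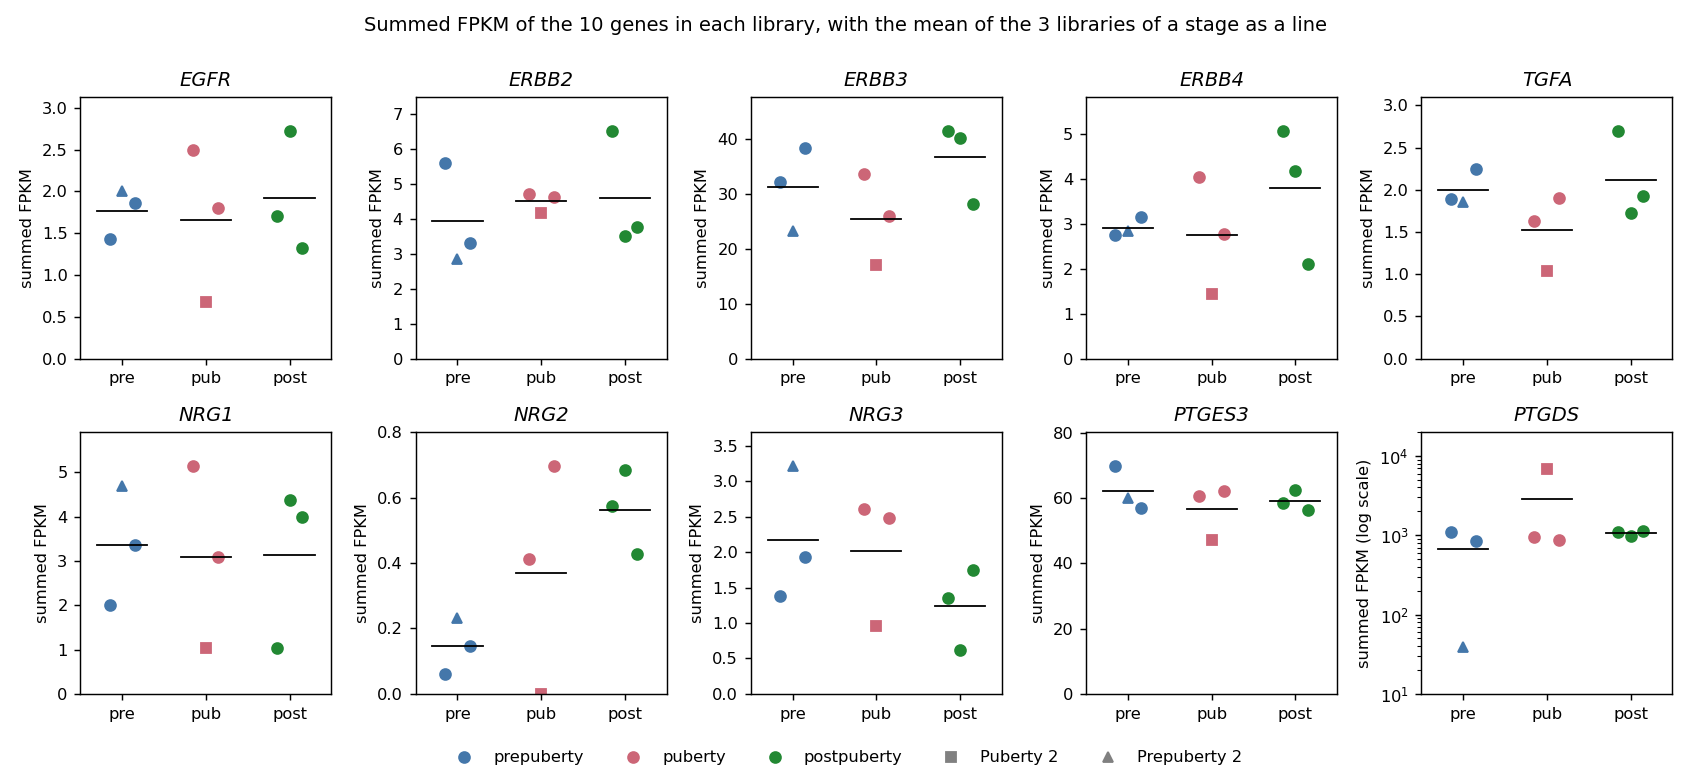
Summed FPKM of each of the 10 genes (vertical axis, logarithmic for PTGDS only) by stage, with 1 point per library and a line at the mean of the 3 libraries of a stage. Puberty 2 (square) was the lowest library for 7 genes and the highest for PTGDS, at 6779, while Prepuberty 2 (triangle) was the lowest for PTGDS, at 38.8.

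Among the receptors, ERBB3 was the most abundant in every library. Its level was 32.1, 23.1 and 38.4 in Prepuberty 1 to 3, 33.6, 17.0 and 25.9 in Puberty 1 to 3, and 41.5, 40.2 and 28.2 in Postpuberty 1 to 3. Puberty 2 was the lowest and Postpuberty 1 the highest library, and the 3 stages overlapped. The ratio of ERBB3 to ERBB2, the partner on which the weak kinase of ERBB3 depends, was 5.60 to 11.6 over 8 libraries, with a median of 7.33. The ratio of ERBB3 to EGFR was 11.6 to 24.3, with a median of 17.7. The gene lies on chromosome 3 at 163434376 to 163455689 of the sheep assembly ARS-UI_Ramb_v3.0, the assembly of all positions given here, and is represented by 1 mRNA, XM_027967607.2.

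The difference of ERBB3 between puberty and postpuberty was 0.54 on the log2(FPKM + 1) scale (later minus earlier stage, as throughout; SE 0.32), with an adjusted p of 0.780 by limma with Benjamini-Hochberg adjustment over all genes. Without Puberty 2 it was 0.28 (SE 0.27). The differences from prepuberty were -0.30 (SE 0.32) at puberty and 0.23 (SE 0.32) at postpuberty, and without Puberty 2 the former was -0.050 (SE 0.27). Without Prepuberty 2 as well they were -0.24 (SE 0.24) and 0.039 (SE 0.22).

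ERBB2 lay at 5.60, 2.85 and 3.31 before puberty, 4.69, 4.15 and 4.63 at puberty, and 6.51, 3.50 and 3.76 after it. It was the receptor that differed least between Puberty 2 and the other libraries, with 0.953 times the mean of those 8. The highest libraries were Postpuberty 1 and Prepuberty 1, so the spread within both of these stages exceeded that between stages. The difference between prepuberty and puberty was 0.20 (SE 0.31), without Puberty 2 it was 0.24 (SE 0.31), and without Prepuberty 2 as well it was 0.086 (SE 0.32). The gene lies on chromosome 11 at 39816076 to 39840334.

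ERBB4, the neuregulin receptor with a full kinase of its own, was at 2.74, 2.83 and 3.14 before puberty, 4.05, 1.43 and 2.78 at puberty, and 5.07, 4.18 and 2.11 after it. The prepubertal libraries were close together, while the later stages spread over and around them. ERBB4 was above EGFR in 8 of 8 libraries, with a median ratio of 1.61. The largest of its differences between stages was 0.36 (SE 0.35) between puberty and postpuberty, and it was 0.076 (SE 0.30) without Puberty 2. The gene spans 1296210 bases of chromosome 2, from 213131029 to 214427238.

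EGFR, the receptor of TGFA, was at 1.43, 2.001 and 1.86 before puberty, 2.50, 0.678 and 1.80 at puberty, and 1.70, 2.73 and 1.32 after it. Puberty 2 held 0.354 times the mean of the other 8 libraries. The stages overlapped also without that library. The difference between prepuberty and puberty was -0.11 (SE 0.32) with all libraries and 0.18 (SE 0.25) without Puberty 2, so its direction rested on that library. EGFR lies on chromosome 19 at 880958 to 1095437, where it overlaps 2 lncRNA genes.

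Of the ligands, TGFA was the least variable, with a coefficient of variation of 17.1% over 8 libraries. Its level was 1.90, 1.85 and 2.25 before puberty, 1.63, 1.03 and 1.90 at puberty, and 2.70, 1.73 and 1.93 after it. The pubertal mean was the lowest of the 3 stages both with Puberty 2 (1.52) and without it (1.77), but the stages overlapped. The difference was -0.26 (SE 0.25) between prepuberty and puberty and 0.31 (SE 0.25) between puberty and postpuberty, with adjusted p of 0.838 and 0.780 by limma. Without Puberty 2 these were -0.12 (SE 0.19) and 0.16 (SE 0.19). TGFA lies on chromosome 3 at 92500770 to 92612721.

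NRG1, the neuregulin with the most annotated transcripts, was at 2.02, 4.68 and 3.35 before puberty, 5.14, 1.03 and 3.08 at puberty, and 1.03, 4.38 and 3.99 after it. The stages overlapped, with a low library in each. The 4 libraries with the lowest NRG1 were Puberty 2, Postpuberty 1, Prepuberty 1 and Puberty 3, from the lowest up. The same 4 libraries, in the same order, had the lowest summed level of 10 neuronal markers, at 357, 487, 707 and 1215, against 1515 to 1858 in the other 5. Among the other 5 the orders differed, with NRG1 highest in Puberty 1 and the marker sum highest in Postpuberty 3. Not every marker followed the sum, and SLC32A1, the vesicular transporter of inhibitory neurons, was highest in Puberty 2 (7.31) and Prepuberty 1 (6.59). In Puberty 3, SNAP25 (448) and SYT1 (69.1) were each below only Prepuberty 2. The same 4 libraries also had the highest sums of 8 astrocyte markers, at 7545 to 9597 against 4640 to 6894 in the other 5. Most of this sum was GFAP, at 4779 to 6624 against 2348 to 4693, and S100B, and not every marker followed it. SLC1A2 was at 0.0035 in Puberty 2, 32.8 in Prepuberty 1, 33.6 in Puberty 3 and 43.5 in Postpuberty 1. In the other 5 it was at 23.1 in Postpuberty 3 and at 70.1 to 76.0 elsewhere. AQP4 was lowest in Puberty 2, at 18.3. They had the highest sums of 6 ependymal and tanycyte markers too, at 263 to 464 against 97.0 to 253. Most of this sum was VIM and RARRES2, and RARRES2 followed it, at 64.1 to 315 against 24.5 to 62.0. FOXJ1 did not, at 1.44 in Postpuberty 1 and 4.54 in Puberty 1. NES was lowest in Puberty 2, at 2.25, and RAX was at most 0.098 in any library. The part of these marker differences in the NRG1 level was not tested. NRG1 lies on chromosome 26 at 27535634 to 27778291.

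The differences of NRG1 between stages were -0.18, 0.034 and -0.15 (SE 0.51 each) for prepuberty to puberty, puberty to postpuberty, and prepuberty to postpuberty. Without Puberty 2 the first was 0.25 (SE 0.48) and the second -0.40 (SE 0.48). Their intervals were among the widest of the 10 genes, from -1.51 to 0.71 for the second.

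**Figure D2:**
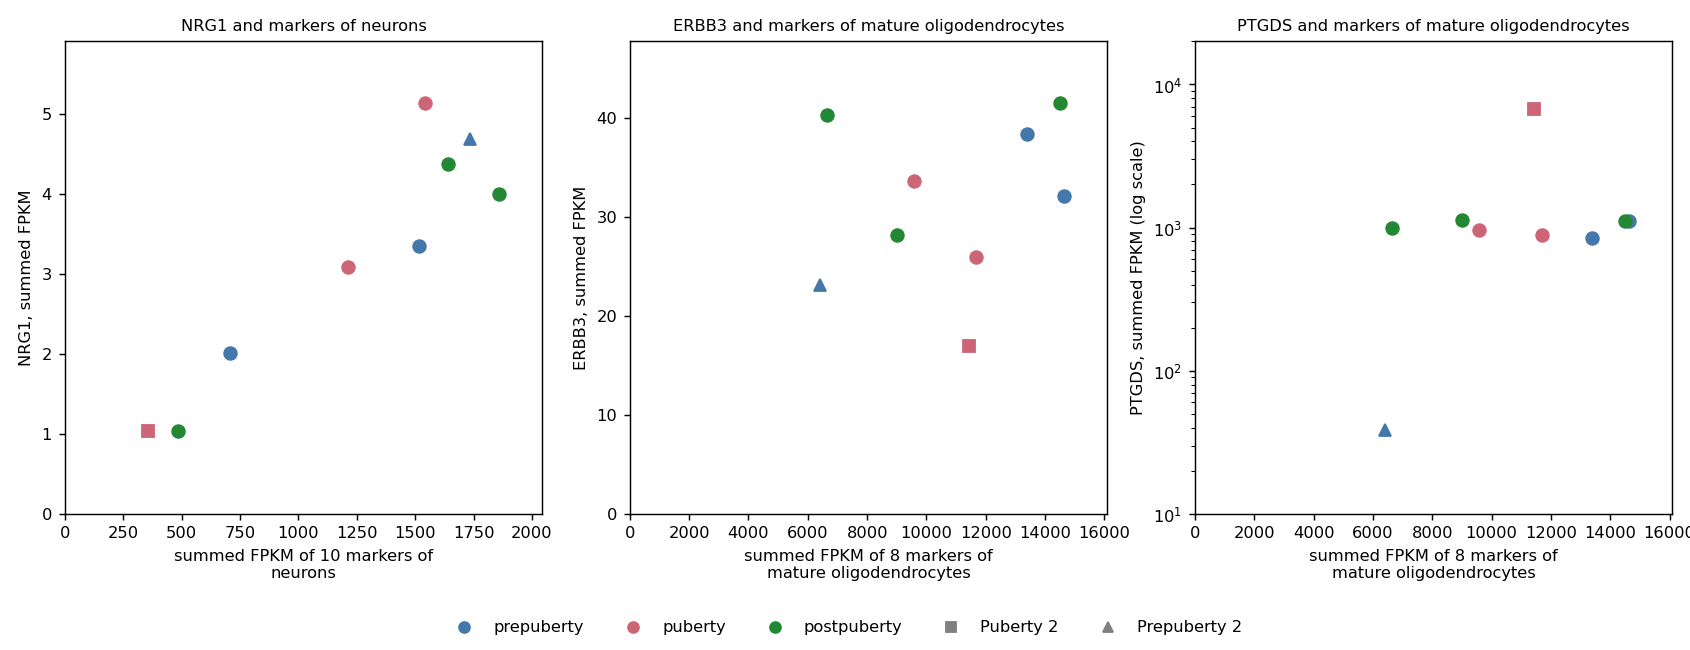
Summed FPKM of NRG1, ERBB3 and PTGDS (vertical axes, logarithmic for PTGDS) against the summed FPKM of 10 neuronal or 8 mature oligodendrocyte markers (horizontal axes), with 1 point per library, colored by stage. The 4 libraries with the lowest neuronal sum also had the lowest NRG1, and Prepuberty 2 had the lowest oligodendrocyte sum (6418) and the lowest PTGDS.

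NRG3, a neuregulin that binds ERBB4, was at 1.38, 3.21 and 1.94 before puberty, 2.61, 0.966 and 2.48 at puberty, and 1.35, 0.617 and 1.75 after it. The lowest library was Postpuberty 2. With Puberty 2 the pubertal and postpubertal libraries overlapped, and without it both pubertal libraries were above all 3 postpubertal ones. The difference between these stages was -0.41 (SE 0.35) and -0.70 without Puberty 2 (SE 0.31, 95% confidence interval -1.42 to 0.028), with an adjusted p of 0.780 and 1 by limma. NRG3 spans 1235273 bases of chromosome 25, from 35919548 to 37154820.

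NRG2 was the lowest of the 10 genes. Its level was 0.0608, 0.233 and 0.146 before puberty, 0.412, 0 and 0.696 at puberty, and 0.574, 0.684 and 0.429 after it. All 3 postpubertal libraries were above all 3 prepubertal ones, and both pubertal libraries other than Puberty 2 were too. The difference between prepuberty and postpuberty was 0.45 (SE 0.22, 95% confidence interval -0.044 to 0.94), with an unadjusted p of 0.069 and an adjusted p of 1 by limma. Without Puberty 2 it was 0.45 (SE 0.15), with an unadjusted p of 0.022 and an adjusted p of 1 by limma.

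The levels of NRG2 lie close to the filter on low values, which asked for a mean of at least 0.5 in 1 stage. The gene passed it only through its postpubertal mean of 0.563 when all libraries were used, so the tested gene had to be higher in some stage. NRG2 lies on chromosome 5 at 48690206 to 48887640, where 4 annotated genes overlap it, and whether the counting used the strand is not given in the sources used here.

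PTGES3 was the steadiest of the 10 genes. The protein, also called p23, is a co-chaperone of HSP90 as well as a cytosolic prostaglandin E synthase. It was at 69.8, 60.0 and 57.0 before puberty, 60.8, 47.2 and 62.3 at puberty, and 58.7, 62.5 and 56.5 after it. Puberty 2 was the lowest library, and the other 8 varied by 6.90% (coefficient of variation). The differences without Puberty 2 were -0.012 (SE 0.15), -0.055 (SE 0.15) and -0.067 (SE 0.13) in the order given for NRG1. Their 95% confidence intervals lay between -0.39 and 0.33, which in this fit bounds a change between stages more tightly than for any other of the 10 genes. With all 9 libraries the differences were -0.14, 0.070 and -0.067 (SE 0.218 each), with intervals between -0.63 and 0.56. NRG2 (SE 0.217) was then bounded slightly more tightly than PTGES3, but only on the log2(FPKM + 1) scale, which compresses values below 1. In FPKM, NRG2 varied by 73.1% over 9 libraries and PTGES3 by 10.1% (coefficient of variation). PTGES3 lies on chromosome 3 at 162983333 to 163003463, 431 kb from ERBB3.

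PTGDS was among the most abundant genes of the tissue. Prostaglandin D2 synthase, also known as beta-trace, converts prostaglandin H2 to prostaglandin D2 and is a lipocalin secreted into cerebrospinal fluid. Its level was 1108, 38.8 and 848 before puberty, 955, 6779 and 881 at puberty, and 1107, 989 and 1131 after it. Prepuberty 2 and Puberty 2 thus lay far below and far above the other 7 libraries, which had a mean of 1003 ± 115 (SD, n = 7). In these 7 the gene ranked 9 to 13 among all genes, in Puberty 2 it ranked 2, and in Prepuberty 2 it ranked 1133. The level in Prepuberty 2 was 0.0392 times and that in Puberty 2 was 6.85 times the median of the 7. As a share of the summed FPKM of all genes, PTGDS held 0.0162% in Prepuberty 2, 1.79% in Puberty 2 and 0.341% to 0.455% in the 7, so the excess in Puberty 2 was smaller on this scale.

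Other abundant genes were examined in these 2 libraries. Of 248 genes with at least 100 FPKM in each of the 7 libraries, PTGDS was the only one at or below 0.1 times their median in Prepuberty 2. In Puberty 2, 10 of the 248 were at 5 times their median or more, PTGDS among them. PTGDS was thus alone among abundant genes in the first library and in company in the second. It lies on chromosome 3 at 930234 to 933238 and overlaps LCNL1, which was at 0.461 in Prepuberty 2, at 3.14 in Puberty 2 and between 0.838 and 1.70 elsewhere.

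The stage difference of PTGDS rested on these 2 libraries. Between prepuberty and puberty it was 2.42 (SE 1.23, 95% confidence interval -0.36 to 5.19), with an adjusted p of 0.838 by limma. Without Puberty 2 it was 1.46 (SE 1.28), and without Prepuberty 2 as well it was -0.078 (SE 0.23). Between prepuberty and postpuberty it was 1.68 (SE 1.23), and without both libraries 0.15 (SE 0.21). Between puberty and postpuberty it was -0.73 (SE 1.23) with all 9 libraries, and these stages overlapped. Without both, the 5 remaining libraries of these stages did not overlap, with 881 and 955 below 989, 1107 and 1131. The difference was then 0.23 (SE 0.21). Of all genes tested, 14.1% did not overlap in this comparison without Puberty 2.

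Markers of the cells that make PTGDS were set beside it. The sum of 8 mature oligodendrocyte markers was lowest in Prepuberty 2, at 6418, and 6 of the 8 were lower there than in each of the 7 libraries. In Postpuberty 2, with PTGDS at 989, the sum was 6655, but there MBP, at 1112, was the only marker below the other 6 libraries, and MOG was at 336 and OPALIN at 188. The sum of 7 leptomeningeal and fibroblast markers was 31.5 in Prepuberty 2, 15.6 in Puberty 2 and 28.2 to 193 in the 7 libraries. Choroid plexus markers were lowest in Prepuberty 2, at 9.71, against 32.9 to 7652 in the 7 libraries, over which PTGDS was between 848 and 1131. In Puberty 2 the oligodendrocyte and choroid plexus sums were 11426 and 555, within the range of the 7 libraries. The sum of 5 endothelial markers was 81.1 in Prepuberty 2 and 653 in Puberty 2, against 95.6 to 163 in the 7 libraries. In Puberty 2 most of it was CLDN5, at 624, and 3 of the 5 were below all 7 libraries. The sum of 6 ependymal and tanycyte markers was 97.0 in Prepuberty 2 and 464 in Puberty 2, against 99.3 to 364. In Puberty 2 most of this sum was RARRES2, at 315, and NES was below all 7 libraries. The part of these markers in the 2 extreme PTGDS values was not tested.

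No stage difference passed the test for any of the 10 genes. A gene counted as called when its adjusted p was below 0.05 and its log2 difference was 1 or more in either direction. Limma called 0 of the 10 in each comparison, with 0% called among the 14238 genes tested. For NRG2 a call was out of reach, since its stage means on the log2(FPKM + 1) scale were 0.19, 0.42 and 0.64. That it was not called is therefore no result. Of all genes, 259, 305 and 116 had an unadjusted p below 0.05 in the comparisons of prepuberty to puberty, puberty to postpuberty, and prepuberty to postpuberty, and none of these was among the 10. Without Puberty 2 limma again called 0 of 14209 genes, and NRG2 had an unadjusted p below 0.05 in the comparisons of prepuberty with each later stage. The moderated F test over the 3 stages had a smallest adjusted p of 0.853 over all genes. A p that misses the threshold does not show that the stages were alike.

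**Figure D3:**
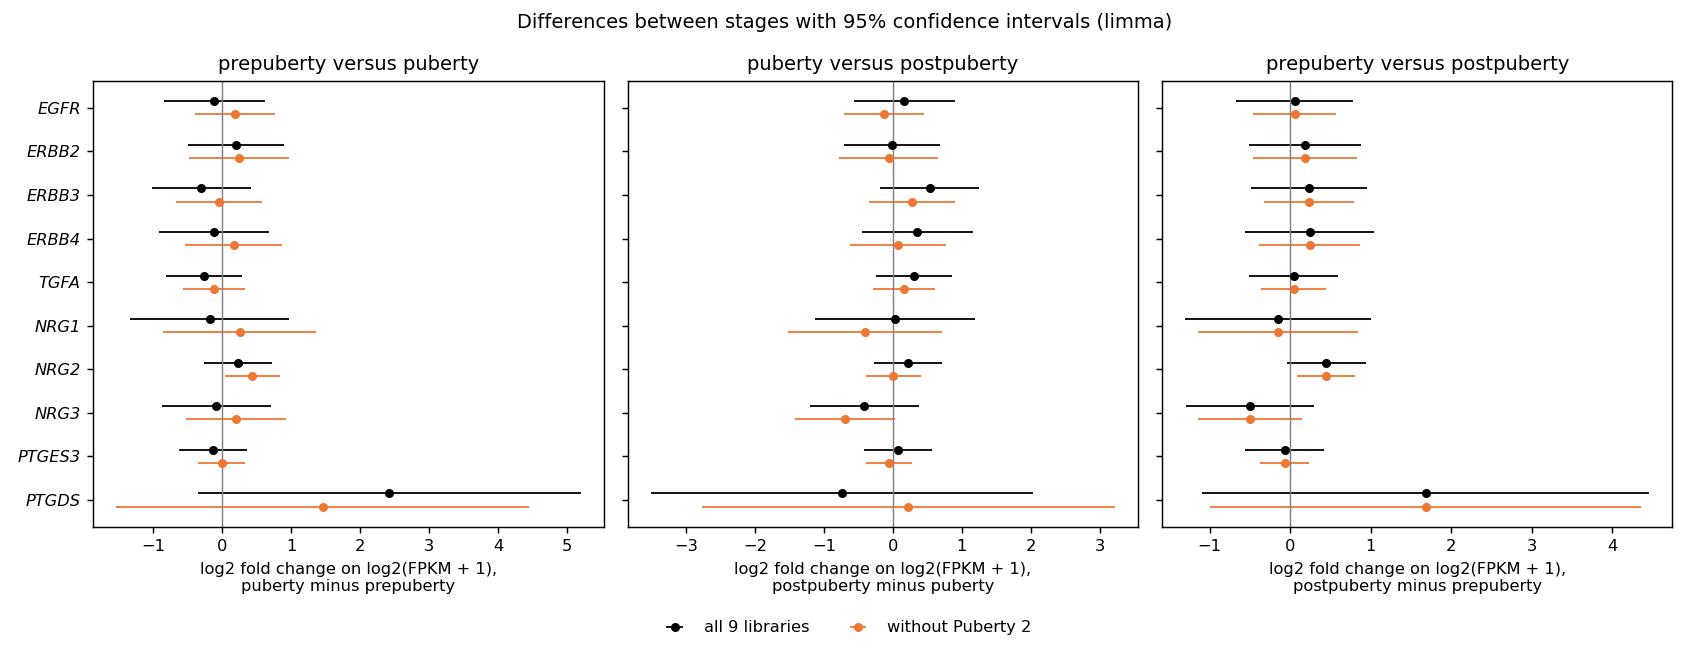
Difference of each gene between stages on the log2(FPKM + 1) scale (horizontal axis, later minus earlier stage), with points at the limma estimate and bars for the 95% confidence interval, from all 9 libraries (black) and without Puberty 2 (orange). Almost all intervals contain 0, the exceptions being NRG2 against prepuberty without Puberty 2, and those of PTGDS are by far the widest.

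Separation of the libraries gave the same picture at the level of counts. Between prepuberty and puberty, 0 of the 10 genes had libraries that did not overlap, against 5.16% of all genes tested. Between puberty and postpuberty it was 0 of 10 against 7.32%, and between prepuberty and postpuberty 1 of 10, NRG2, against 4.57%. Without Puberty 2 the counts were 1 of 10 (NRG2) against 11.7%, 2 of 10 (NRG3, higher at puberty, and PTGDS, higher after it) against 14.1%, and 1 of 10 (NRG2) against 4.53%. Against these background shares, counts of 0 to 2 of 10 are no result about the 10 genes. The smallest two-sided p that an exact permutation test of 3 libraries against 3 allows is 0.1.

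Puberty 2 also shifted the genes as a whole. The median log2 difference of all genes was -0.14 between prepuberty and puberty and 0.19 between puberty and postpuberty, and without Puberty 2 these were 0.023 and 0.026. The median of the 10 genes was -0.12 and 0.12 with all libraries, and 0.19 and -0.022 without Puberty 2. With all libraries, 7 of the 10 were lower at puberty than before it, and without Puberty 2 it was 3 of the 10. Between prepuberty and postpuberty the median was 0.12 for the 10 genes and 0.048 for all genes.

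The transcripts that carried each gene were described next, since a gene's sum can hold steady while its mRNAs exchange. Of the 40 RefSeq mRNAs, 21 held at least 10% of their gene's sum and 3 were listed at 0 in every library. PTGDS (NM_001009257.2) and ERBB3 have 1 mRNA each. EGFR and PTGES3 rested on 1 main mRNA, XM_015102199.4 with 94.5% and XM_027967575.2 with 96.9% of the sum over 9 libraries. FPKM of transcripts that share most of their exons is estimated by dividing reads among them, so a split within a gene is less certain than its sum.

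ERBB2 was carried mainly by XM_015098758.3, with 78.7% of the sum over 9 libraries and 88.05% without Puberty 2. In Puberty 2 this mRNA was listed at 0 and XM_060394882.1 held 4.15, the whole sum. XM_060394882.1 held at most 16.4% in any other library. TGFA showed the same kind of exchange. Its main mRNA, XM_060412327.1, was between 0.845 and 2.004 in the other 8 libraries and at 0 in Puberty 2, where XM_060412326.1 alone was above 0, at 1.03, against at most 0.148 elsewhere. In both genes the sum in Puberty 2 therefore came from a transcript that was minor in every other library.

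ERBB4 was split over XM_042244993.2, XM_060410398.1 and XM_060410397.1. The first held 45.4% of the sum and was between 0.704 and 3.17 in the 9 libraries. The third was at 0.978 to 1.49 in Prepuberty 2, Prepuberty 3, Puberty 1 and Postpuberty 2, and at 0.060 or less in the other 5. The libraries with and without it were found in all 3 stages. NRG1 had 16 mRNAs, of which 13 were above 0 in some library. XM_042241398.2, with 38.1% of the sum, XM_060407183.1 and XM_042241403.2 each held at least 10%, and no mRNA held more than 53.4% of the sum in any library other than Puberty 2.

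NRG3 was divided among 4 mRNAs whose shares differed between libraries. XM_060406806.1 was at 0.916, 1.05 and 0.348 before puberty, 0.0085, 0 and 0.014 at puberty, and 0.572, 0.0016 and 0.0024 after it. All 3 prepubertal libraries were above the pubertal ones, and after puberty 1 library of 3 lay in the prepubertal range. XM_060406805.1 was at 0.075, 0.226 and 0.471 before puberty, 1.49, 0.018 and 1.64 at puberty, and 0.770, 0.615 and 1.02 after it. Apart from Puberty 2, every pubertal and postpubertal library was above every prepubertal one. In Puberty 2, XM_042241140.2 held 98.1% of the NRG3 sum.

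The difference of XM_060406806.1 between prepuberty and puberty was -0.79 (SE 0.27), with an adjusted p of 0.831 by limma over 27674 transcripts. This transcript passed the filter only through its prepubertal mean of 0.770, so it had to be higher in that stage. That of XM_060406805.1 between prepuberty and postpuberty was 0.52 (SE 0.38), with an adjusted p of 1 by limma. It too was tested only through the stages where it is high, since its prepubertal mean was 0.257. Without Puberty 2 its difference between prepuberty and postpuberty was 0.52 (SE 0.22), and between prepuberty and puberty it was 1.04 (SE 0.24), with an unadjusted p of 0.0027 and an adjusted p of 1 by limma. The summed NRG3 levels of prepuberty and puberty differed by -0.086 (SE 0.35) with all libraries, by 0.20 (SE 0.31) without Puberty 2 and by 0.42 (SE 0.29) without Prepuberty 2 as well.

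**Figure D4:**
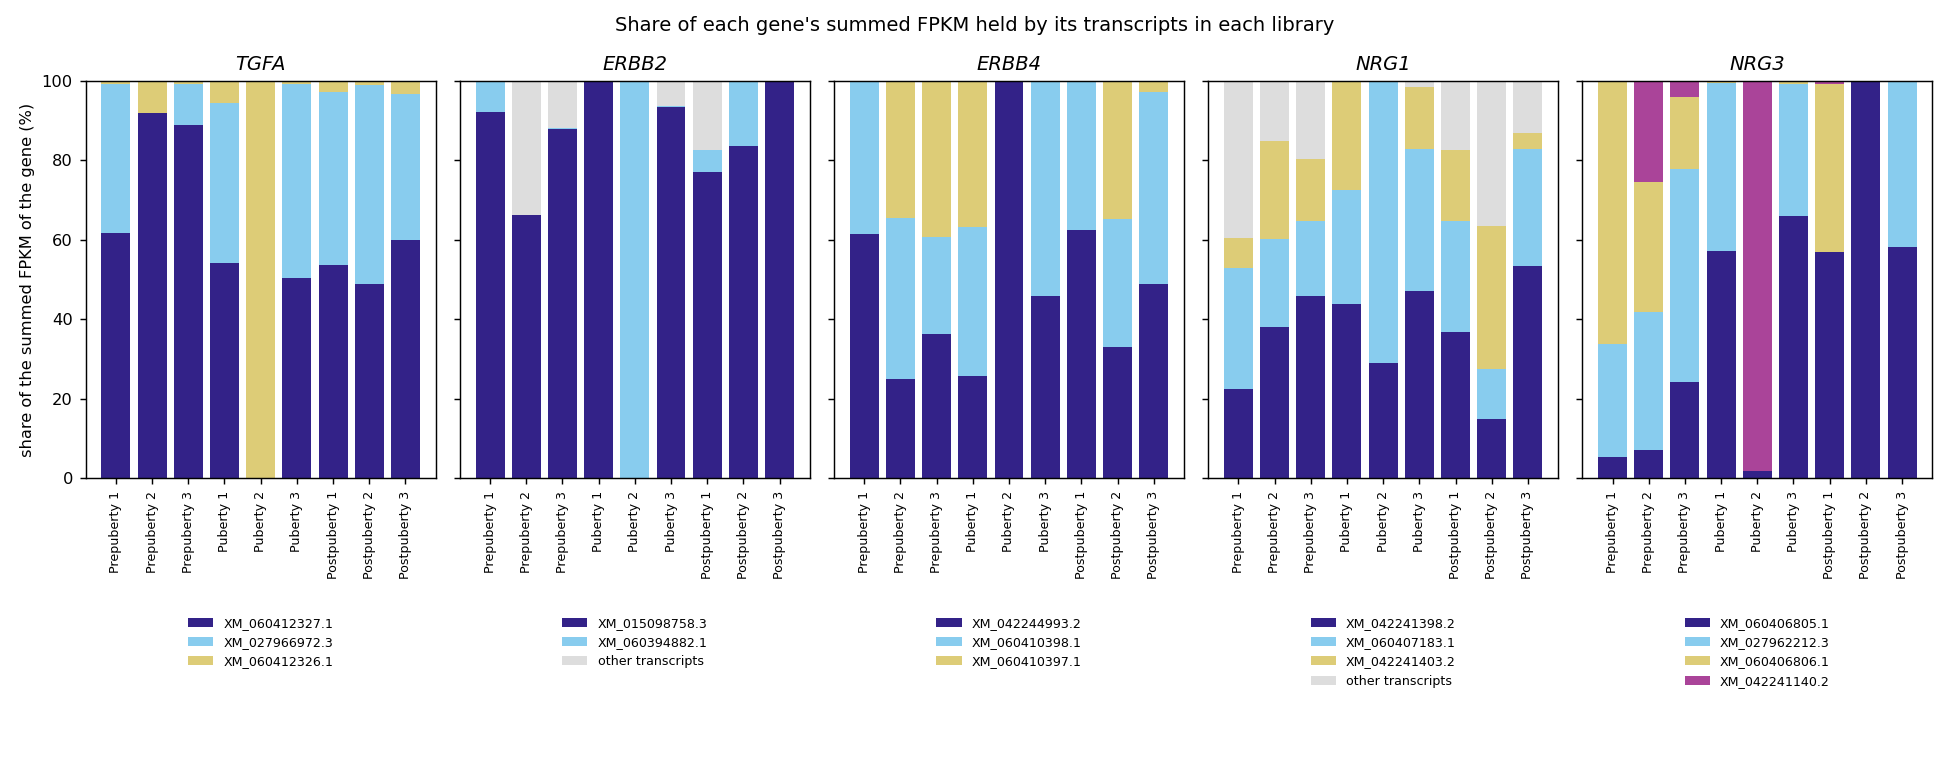
Share of the summed FPKM (vertical axis, in percent) held by each named transcript of TGFA, ERBB2, ERBB4, NRG1 and NRG3 in each of the 9 libraries (horizontal axis), with transcripts that hold under 10% overall and never reach 50% drawn as other transcripts. In Puberty 2 the bars of TGFA and ERBB2 consist of 1 transcript that holds little of the sum elsewhere, and in NRG3 XM_060406806.1 (66.2% in Prepuberty 1) holds almost nothing in the pubertal libraries.

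Of the 40 transcripts, 18 passed the filter and 0 were called in any comparison. For low ones such as XM_060406806.1, with stage means of 0.80, 0.011 and 0.22 on the log2(FPKM + 1) scale, a difference of 1 was out of reach. Over all 27674 transcripts tested limma also called 0, with 858, 952 and 477 at an unadjusted p below 0.05. Libraries did not overlap for 2 of the 18 between prepuberty and puberty, against 7.3% of all transcripts tested. These were XM_060406806.1 of NRG3 and XM_060412327.1 of TGFA, which differed by -0.75 (SE 0.35), and by -0.44 (SE 0.26) without Puberty 2. It was 0 of 18 between puberty and postpuberty, against 8.48%, and 1 of 18 between prepuberty and postpuberty, against 6.86%. Without Puberty 2 it was 5, 3 and 1 of 17, against 15.7%, 16.9% and 6.82%.

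The rest of the pathway was read from 6 lists of 58 genes, of which 54 were matched by symbol and 46 were tested. Limma called 0 of the 46 in each of the 3 comparisons, with and without Puberty 2. Among 7 other ErbB ligands, 2 were tested. HBEGF, a ligand of EGFR and ERBB4, was the most abundant, with a mean of 4.19 over 8 libraries and 1.43 to 3.27 times the level of TGFA. BTC, betacellulin, had a mean of 1.89. The remaining ligands in the table were lower still, down to 0.0345 for EREG. HBEGF and TGFA were thus in the same low range, above the EGFR ligands AREG and EREG.

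The 4 enzymes that release or process ErbB ligands were all tested. BACE1, the protease that cleaves NRG1, was the highest at 23.3, and ADAM19 the lowest at 1.26. ADAM17, the protease that sheds TGFA, was listed at 0 in Puberty 2 and was between 6.81 and 12.5 in the other 8 libraries. Among 16 adaptors and brakes of ErbB signaling, PTPN11, the phosphatase SHP2, was the highest at 43.1 and CBLB, a ubiquitin ligase, the lowest at 1.17. GRB2, which links receptors to the Ras pathway, was at 5.27, 28.8 and 21.1 before puberty, 21.4, 0.020 and 33.0 at puberty, and 33.6, 34.7 and 41.9 after it. Its postpubertal libraries were above all others, and Puberty 2 was near 0. Libraries did not overlap for 2 of the 16 between prepuberty and puberty (CBL and STAT5B), for 1 between puberty and postpuberty (GRB2) and for 2 between prepuberty and postpuberty (GRB2 and SOS1), beside 5.16%, 7.32% and 4.57% of all genes tested. Without Puberty 2 it was 3, 1 and 2 of the 16, beside 11.7%, 14.1% and 4.53%. The median difference of the 16 genes was -0.33 between prepuberty and puberty and 0.053 without Puberty 2, beside -0.14 and 0.023 for all genes.

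Of 12 further genes of prostaglandin synthesis, 10 were tested. The list includes HSP90AA1 and HSP90AB1, the chaperones with which the PTGES3 protein works, and these were the most abundant, with means of 522 and 219. The cyclooxygenases, which make the substrate for both prostaglandin synthases, were low, with means of 2.05 for PTGS1 and 0.892 for PTGS2. PTGS2 was highest in Prepuberty 1, at 2.02, and lowest in Postpuberty 2, at 0.234. The other prostaglandin E synthases had means of 19.1 (PTGES2) and 4.05 (PTGES), below PTGES3 in every library. HPGDS, the hematopoietic prostaglandin D synthase, was the lowest at 0.310, so the prostaglandin D synthase RNA of these libraries was almost all from PTGDS. With all 9 libraries, the stages overlapped for every tested gene of this list, and without Puberty 2 PTGES alone did not overlap, in the comparison of prepuberty with puberty (1 of 10 beside 11.7% of all genes).

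Among 13 genes of prostaglandin receptors, transport and breakdown, 9 were tested, and PTGR1, a reductase that inactivates prostaglandins, was the highest at 30.4. PTGIR, the prostacyclin receptor, was the lowest at 0.151. PTGER1, a receptor of prostaglandin E2, was at 0.354, 0.567 and 0.638 before puberty, 0.844, 0.652 and 1.56 at puberty, and 0.699, 0.482 and 0.556 after it. Its prepubertal and pubertal libraries did not overlap, which makes 1 of the 9 beside 5.16% of all genes tested, and it was not called. Without Puberty 2 PTGER1 separated puberty from both other stages, which again makes 1 of the 9, beside 11.7% and 14.1%, with an unadjusted p of 0.034 and an adjusted p of 1 by limma between prepuberty and puberty. PTGER3, another receptor of prostaglandin E2, was listed at 0 in Puberty 2 and lay between 0.151 and 2.70 in the others. Of 6 genes of contact between glia and GnRH neurons, 5 were tested, with CNTN1, contactin, the highest at 45.6 and ST8SIA2, a sialyltransferase, the lowest at 0.184, and the stages of all 5 overlapped.

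**Figure D5:**
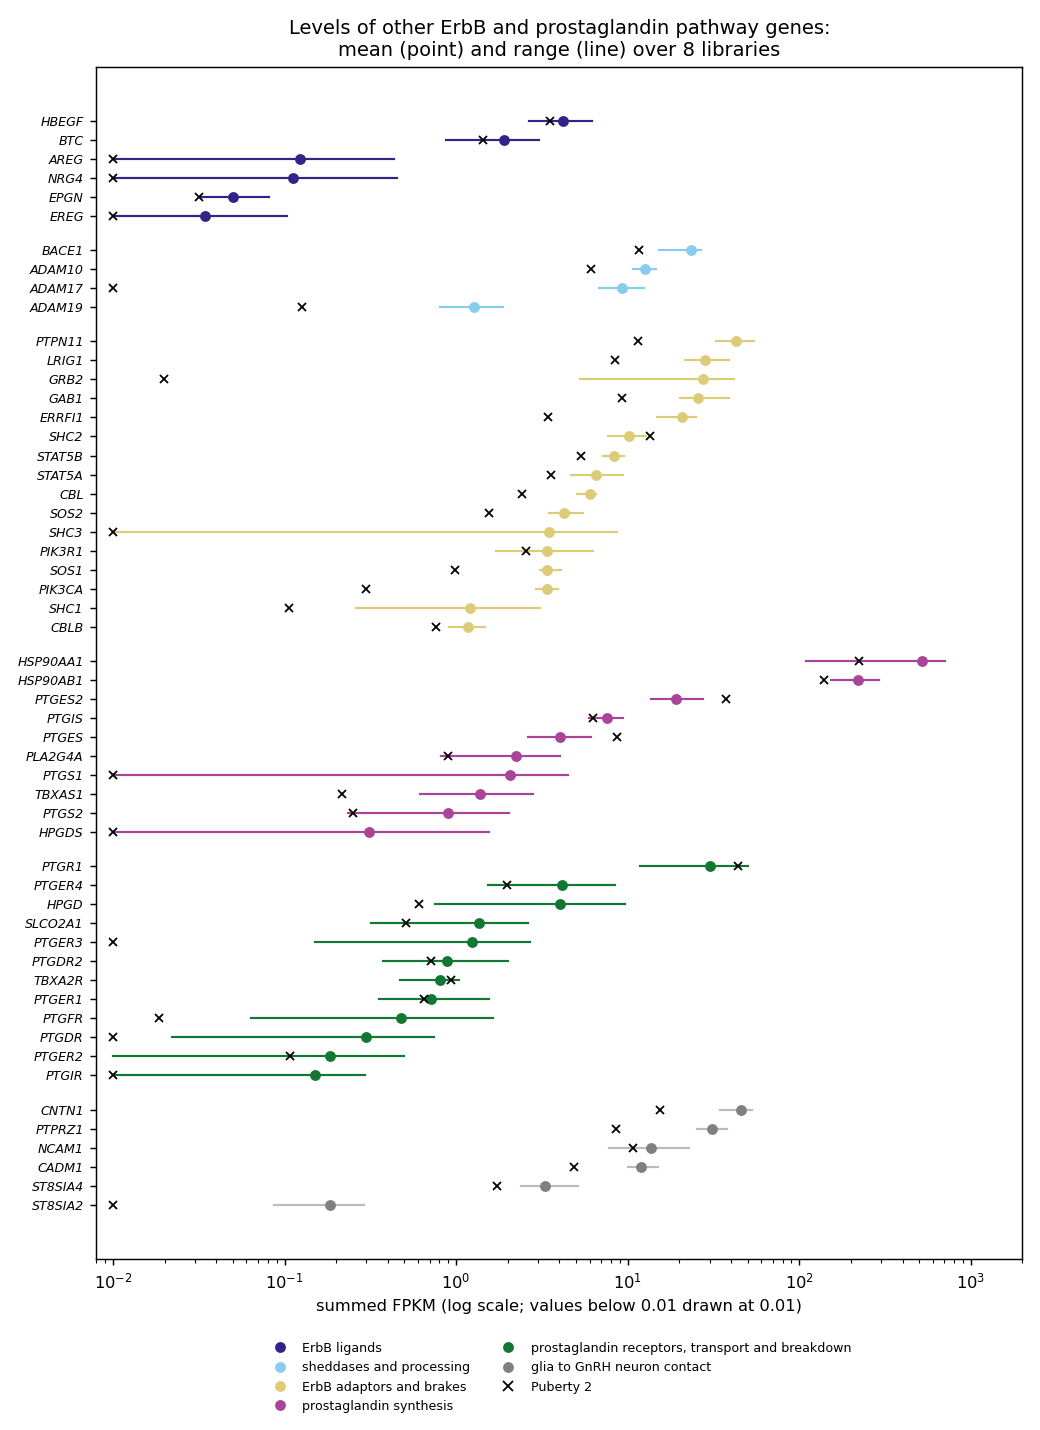
Mean (point) and range (line) over 8 libraries of the summed FPKM (horizontal axis, logarithmic, values below 0.01 drawn at 0.01) of the pathway genes in the table, by list, with Puberty 2 as a cross. The chaperones HSP90AA1 (mean 522) and HSP90AB1 (219) lie above all others, and Puberty 2 falls outside the range of the 8 for many genes, GRB2 (0.020) among them.

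The 10 genes were also compared with each other and with other genes across the 8 libraries other than Puberty 2. These correlations (Pearson's r on the log2 scale over 8 libraries of 3 stages, of which those of 1 stage share age and state) are descriptions. ERBB3 and ERBB4 had an r of 0.73 and EGFR and ERBB4 of 0.60, and with Puberty 2 these were 0.86 and 0.80. TGFA and NRG1 had an r of -0.82 and ERBB3 and NRG3 of -0.72, but with Puberty 2 these were 0.032 and -0.17, so they rested on leaving out that library. ERBB2 and NRG1 had an r of -0.78, which was -0.63 with Puberty 2. Among 6858 genes with a mean of at least 5, the ones most like ERBB3 were TUBB4A (0.97), SLC48A1 and LY6E (0.93 each), and with Puberty 2 their r was -0.019, 0.56 and -0.15. Those most like NRG1 were CHP1, PTDSS1 and ATP13A2 (0.99 each), those most like NRG3 were USP11 (0.96), RNF157 (0.94) and MTOR (0.92), and those most like NRG2 were HSD17B4 (0.93), SGCE and NEDD4L (0.92 each).

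For TGFA the most like genes were DUSP14 (0.92), ACSF2 (0.91) and ANKIB1 (0.90). For the receptors they were PPP1R21 (0.97), C1QBP and TEX2 (0.96 each) for EGFR, LOC101102694 (0.97), TASOR and CLTRN (0.96 each) for ERBB2, and ARL2BP (0.95), IL1RAP (0.94) and RRP8 (0.93) for ERBB4. For PTGES3 they were MRCL3 (0.92), SORD (0.90) and KAT8 (0.88). With Puberty 2 the r was 0.45 for DUSP14, 0.33 for TASOR, -0.090 for ARL2BP, -0.081 for MRCL3 and -0.36 for KAT8. ARID1A and IFT46 (0.99 each) and GIGYF2 (0.98) were most like PTGDS, but over the 7 libraries without Prepuberty 2 their r was 0.60, 0.66 and 0.10. The likeness to PTGDS thus rested on Prepuberty 2.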

How the data were processed

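Hypothalamus libraries of 9 ewes were grouped by the stage in their labels, with 3 per stage. The authors trimmed reads with Trimmomatic, aligned them with HISAT2 to ARS-UI_Ramb_v3.0 and assembled transcripts with StringTie. The deposited values are FPKM for 115108 transcripts, although the table is described as raw counts, so no count test was used. Whether reads were counted by strand is not given in the sources used here.

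RefSeq mRNAs (NM and XM) were matched to genes through the RefSeq annotation of that assembly (89672 of 89674 RefSeq transcripts matched) and summed per gene. Transcripts without a RefSeq identifier were not used. Genes whose mean reached 0.5 FPKM in 1 stage or more were tested with limma 3.58.1 (R 4.3.3) on log2(FPKM + 1) with a variance trend, the 3 stages in 1 fit, and Benjamini-Hochberg adjustment over all genes. The fit was tested on simulated data, and no result of that test is given or used here. Transcripts were tested in the same way.

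All 10 genes are named, with transcripts of at least 10% of their gene, the highest and lowest gene of each pathway list, genes that separate stages, and the 3 genes most like each of the 10. Some further list genes were named after their values were seen. The genes, lists and tests were chosen with earlier results of these data known. Alternatives were other scalings, filters and pseudocounts, robust variance, a replicate block, and leaving out libraries. Leaving out Prepuberty 2 and Puberty 2 together was chosen after seeing the data.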

Additional observations from a re-analysis of the deposited data

How the results depend on the processing

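None of the 10 genes was called under any of the 19 settings tried, and their smallest adjusted p was 0.516 by limma. Of 567 values of the log2 differences of the 10 genes, 523 kept their direction and 44 changed it, 24 of them when 1 library was left out. Part of the 523 could not have changed. Robust variance, the filters and the replicate block leave each difference as it was, as does leaving out a library of the stage not compared. The count is therefore no measure of stability. Of the 30 differences, 15 kept their direction throughout. With quantile normalization the direction changed for TGFA between prepuberty and postpuberty (-0.011), for EGFR between prepuberty and puberty (0.12) and puberty and postpuberty (-0.12), for ERBB4 (0.14), NRG1 (0.083) and NRG3 (0.17) between prepuberty and puberty, and for NRG1 between puberty and postpuberty (-0.27). With upper quartile scaling it changed for NRG1 (-0.052) and PTGES3 (-0.069) between puberty and postpuberty, and with equal totals for ERBB2 in that comparison (0.17). Equal totals moved the median of all genes to -0.26, 0.33 and 0.067, and quantile normalization to about 0.0091, -0.0063 and 0.0017. Without Prepuberty 2 and Puberty 2 together, the values between prepuberty and puberty were 0.25 for EGFR, 0.15 for ERBB4, 0.47 for NRG1, 0.42 for NRG3 and -0.078 for PTGDS. Between puberty and postpuberty they were -0.13 for EGFR, -0.40 for NRG1, -0.055 for PTGES3 and 0.23 for PTGDS, and between prepuberty and postpuberty 0.066 for NRG1. Apart from the removal of the libraries themselves, the cause was not tested.

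Leaving out 1 library at a time gave the following ranges. Between prepuberty and puberty they were -0.34 to 0.18 for EGFR, -0.36 to 0.16 for ERBB4, -0.55 to 0.25 for NRG1 and -0.27 to 0.20 for NRG3. Between puberty and postpuberty they were -0.13 to 0.40 for EGFR, -0.25 to 0.12 for ERBB2, -0.40 to 0.48 for NRG1, -0.055 to 0.14 for PTGES3 and -1.24 to 0.23 for PTGDS. Between prepuberty and postpuberty they were -0.083 to 0.14 for TGFA, -0.14 to 0.21 for EGFR, -0.048 to 0.42 for ERBB2, -0.40 to 0.30 for NRG1 and -0.13 to 0.017 for PTGES3. With the replicate block, 0 genes were called. Each replicate number occurs once in each stage, so the block cannot change a difference or its direction, only its SE. The replicate numbers were not taken to pair ewes, since the labels state no pairing. The deviations of same-numbered libraries had r from -0.31 to 0.51, with 2 of 9 pairs over 0.1. Those of libraries with different numbers had r from -0.56 to 0.31. NRG2 had no value with a filter at a mean FPKM of 1. Without read counts, the precision of the low genes is unknown.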
